A study of Mus musculus with 32 samples.

Results

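Cycling fibroblasts and progenitors are the cells of the fat stroma that carried both extracellular matrix RNA and RNA of the cell division machinery. They were picked from single cell libraries by a rule on measured RNA. A barcode had to show 300 genes or more, with mitochondrial transcripts making up 10% or less of its UMIs (unique molecular identifiers, each counting 1 captured RNA molecule). It also needed at least 50 UMIs summed over the matrix genes Dcn, Col3a1, Col1a1 and Col1a2, none of the leukocyte gene Ptprc, none of the endothelial genes Pecam1 and Cdh5, and at least 5 UMIs summed over the division genes Mki67, Top2a, Birc5, Cdk1, Ccnb1 and Cenpf. The rule found 117 cells among the 19564 barcodes that passed the filters. The 6221 barcodes that met every other term with fewer division UMIs are called the other matrix-gene cells below and serve for comparison. Since measured RNA chose the cells, every difference between them and the other cells is a description, and none was tested.

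The libraries held the stromal vascular fraction, that is the cells of a fat pad other than its adipocytes, taken from epididymal fat in C57BL/6 mice. The 4 groups were CD169-DTR mice on high fat diet, WT mice on high fat diet, CD169-DTR mice on normal diet and WT mice on normal diet. Each diet lasted 16 weeks, and all 4 groups, controls included, then received diphtheria toxin for 7 days. The toxin was used to remove tissue resident macrophages, and the study asked what that loss does to the other cells of lean and obese fat. CD169 is the product of Siglec1, and DTR is the diphtheria toxin receptor. The labels do not say how the receptor was inserted or how many mice went into a library. Cells with and without CD45 on their surface were sorted, many F4/80-high cells and Ly6C-high monocytes were left out, and the 2 sorts were mixed 1:1, so that shares below are taken within the matrix-gene cells. Each group had 1 library, read as 8 sequencing records. There were no replicates, and no difference between groups was tested. Each interval is a 95% interval for counting error alone, which leaves out the variation between mice. The intervals of gene ratios take every UMI as independent, so they also leave out the variation between cells.

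The libraries held 33390225 to 64766718 UMIs in 4014 to 6696 barcodes, and the filters removed 9.33% to 22.5% of the barcodes. Siglec1 (chromosome 2, 131069220 to 131086765, minus strand, GRCm38) had 195 UMIs over all kept cells in the high fat library labelled DTR, against 51 in the high fat library labelled WT, and 113 in the normal diet library labelled DTR, against 5 in the normal diet library labelled WT. As CPM, the UMIs of a gene scaled to the same total in every group of cells, these were 3.05, 1.09, 3.45 and 0.136. The level was thus higher in the libraries labelled DTR, which goes against the direction that removal of CD169-positive cells would give among the cells sequenced, and the groups are called by their labels throughout. Each cell was assigned to its library by the barcode suffix, read in the order of the aggregation sheet, and any direction between genotypes depends on that order and on the labels. The same barcode sequence occurred in more than 1 library for 298 sequences. Of the cycling cells, 14 had such a barcode, 5 in the high fat library labelled DTR and 9 in the normal diet library labelled DTR. The copies in other libraries had 448 to 934 UMIs, at most 2.08% of the UMIs of the cycling cell, and none of them was a cycling cell.

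Division begins with copying the DNA and ends with parting the chromosomes. Genes for the first step, such as the Mcm helicase, are switched on by E2F factors once cyclin-dependent kinases have released them from the retinoblastoma proteins. Genes for the second, such as Plk1 and Ube2c, follow later under the MuvB complex with B-Myb (Mybl2) and Foxm1, and many of their promoters hold CCAAT boxes and a short element named CHR. In adult fat most stromal fibroblasts rest outside the cycle. They include progenitors that can divide and give rise to adipocytes, among them a Dpp4-positive early population near the tissue surfaces, and the mesothelium covers the outside of the pad.

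The promoters are shown first because mitosis and replication genes stand far higher in the cycling cells and such elements are known from these gene classes. Of the listed mitosis genes, 33 of 40 had a RefSeq promoter (GRCm38.p6), and of the replication genes 27 of 32. In the 250 bases before the first listed start, the letters CCAAT stood, on either strand, in 26 of the 33 mitosis promoters (78.8%), in 14 of the 27 replication promoters (51.9%) and in 34.5% of all 27025 promoters. The CHR letters TTTGAA, on either strand, stood in 11 mitosis promoters (33.3%), 3 replication promoters (11.1%) and 16.3% of all. CCAAT and TTTGAA were both present in 10 mitosis promoters (30.3%), against 5.73% of all. The letters TTTAAA, also counted on either strand, were no more frequent there: 3 mitosis promoters (9.09%), 3 replication promoters (11.1%) and 12.1% of all. CCAAT was not particular to division genes, since it also stood in 7 of 13 promoters of the other collagen genes (53.8%). The E2F letters TTTCCCGC, TTTGGCGC or TTTCGCGC, on either strand, stood in 7 replication promoters (25.9%), 1 mitosis promoter (3.03%) and 1.59% of all. The median GC content was 59.2% in mitosis promoters, 62.8% in replication promoters and 52% in all promoters, and its part in these shares was not tested. These letter matches are descriptions, not proof of a bound site. The 150 bases before the start of 3 mitosis genes are given with CCAAT and TTTGAA, or their reverse complements, in capitals: Ect2 (chr3:27153879-27154028, minus strand), a guanine exchange factor of cytokinesis, Ckap2l (chr2:129297213-129297362, minus strand), a spindle protein, and Kif11 (chr19:37376232-37376381, plus strand), a motor that pushes the spindle poles apart.
Ect2: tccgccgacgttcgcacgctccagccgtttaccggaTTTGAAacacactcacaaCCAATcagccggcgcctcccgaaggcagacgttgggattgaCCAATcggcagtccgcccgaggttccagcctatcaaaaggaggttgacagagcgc
Ckap2l: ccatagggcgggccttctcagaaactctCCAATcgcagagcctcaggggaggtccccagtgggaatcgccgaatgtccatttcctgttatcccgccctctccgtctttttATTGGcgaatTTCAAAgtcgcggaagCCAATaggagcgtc
Kif11: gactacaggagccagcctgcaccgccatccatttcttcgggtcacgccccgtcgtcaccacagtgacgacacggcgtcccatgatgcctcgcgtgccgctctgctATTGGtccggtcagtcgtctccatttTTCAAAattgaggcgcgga

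For 2 replication genes the capitals mark the E2F letters or their reverse complement: Mcm5 (chr8:75109359-75109508, plus strand), a subunit of the helicase, and Dtl (chr1:191575545-191575694, minus strand), which directs the licensing factor Cdt1 to destruction.
Mcm5: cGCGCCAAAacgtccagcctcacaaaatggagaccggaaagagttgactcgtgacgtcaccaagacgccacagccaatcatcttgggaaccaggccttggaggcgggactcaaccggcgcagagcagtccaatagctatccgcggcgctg
Dtl: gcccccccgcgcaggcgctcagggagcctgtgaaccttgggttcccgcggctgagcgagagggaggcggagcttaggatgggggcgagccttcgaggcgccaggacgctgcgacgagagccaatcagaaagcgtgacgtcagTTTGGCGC

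The cycling cells were found mostly in the libraries labelled DTR. There were 92 in the high fat library labelled DTR, 4 in the high fat library labelled WT, 18 in the normal diet library labelled DTR and 3 in the normal diet library labelled WT. As shares of the matrix-gene cells these were 3.50% (2.83 to 4.28) of 2627 cells, 0.247% (0.0673 to 0.631) of 1621, 1.74% (1.04 to 2.74) of 1033 and 0.284% (0.0586 to 0.827) of 1057. In high fat diet the share was 14.2-fold higher in the library labelled DTR than in that labelled WT, with a log2 ratio of 3.83 (2.42 to 5.73). The normal diet share was 6.14-fold higher in the library labelled DTR, at 2.62 (0.84 to 5.02) on the log2 scale. Between the libraries labelled DTR the high fat share was 2.01-fold the normal diet share, a log2 ratio of 1.01 (0.27 to 1.82). Between those labelled WT the log2 ratio of high fat over normal diet was -0.20 (-2.77 to 2.57), an interval too wide to give a direction. Without the barcode sequences shared between libraries, 87 and 9 cycling cells remained in the high fat and normal diet libraries labelled DTR (3.35% and 0.927%), and their log2 ratio was 1.85 (0.86 to 3.03). In normal diet the log2 ratio of labelled DTR over labelled WT then was 1.70 (-0.30 to 4.22), 3.25-fold, an interval that no longer gives a direction. In high fat diet it was 3.76 (2.35 to 5.66).

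**Figure D1:**
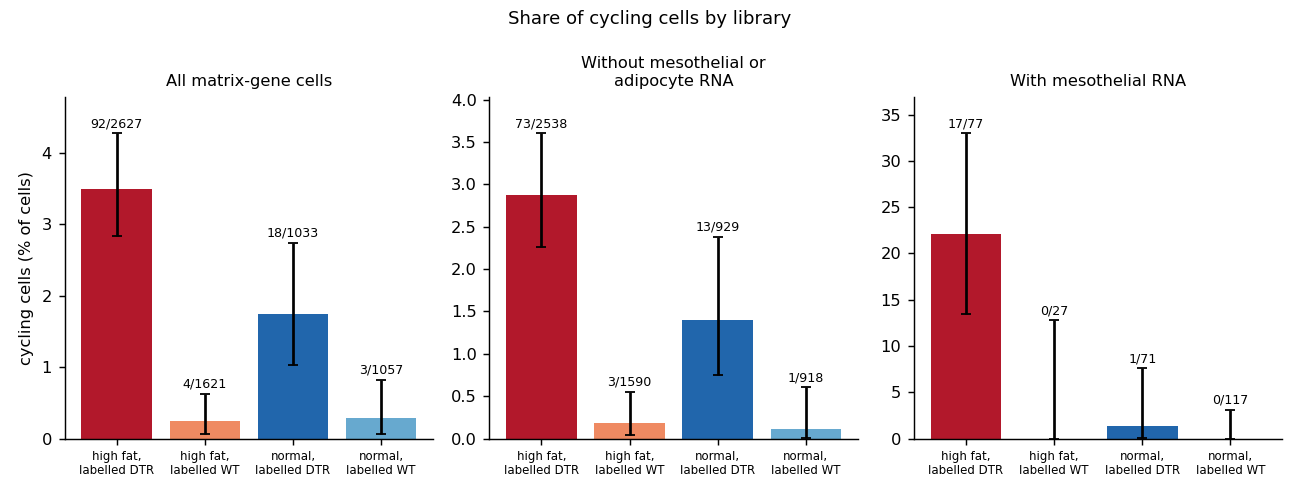
The panels give cycling cells as a percentage of the cells, by library, for all matrix-gene cells, for those with neither mesothelial nor adipocyte RNA, and for those with mesothelial RNA. Bars are shares, error bars are exact 95% binomial intervals for counting error, and cycling over total cell numbers stand above the bars. The libraries labelled DTR are above those labelled WT in the first and second panels, and in the third the high fat library labelled DTR stands at 22.1%.

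In each library the median depth was greater in the cycling cells than in the other matrix-gene cells. The cycling cells had a median of 22923.5, 27915, 26130.5 and 37863 UMIs in the high fat library labelled DTR, the high fat library labelled WT, the normal diet library labelled DTR and the normal diet library labelled WT. The other matrix-gene cells of the same libraries had 12715, 11404, 12326 and 10137. With the terms on matrix, leukocyte and endothelial genes read on all UMIs and the division genes read as at least 2 UMIs after thinning every cell to 3000 UMIs, the shares were 3.05%, 0.190%, 1.68% and 0.193% in the same order of libraries, and 69, 42, 24 and 23 shallower cells were left out. The rule as written, applied to cells thinned to 3000 UMIs, found 30, 0, 7 and 0 cells. Endothelial cells with under 50 matrix UMIs, which share any free RNA of the droplets, met the division term in 0 of 21, 4 of 471 (0.849%), 0 of 411 and 1 of 856 (0.117%) cells at median depths of 2877, 3886, 3268 and 3680.5 UMIs. Thinned in the same way they gave 0%, 0.597%, 0.851% and 0.322%, so the thinned shares in the libraries labelled WT lie below this level, which itself rests on 2 cells in each of 3 libraries, and no difference is read between those libraries. Single cells there did carry much division RNA. The 4 cycling cells of the high fat library labelled WT held 49, 36, 21 and 6 division UMIs, and the 3 of the normal diet library labelled WT held 57, 9 and 6.

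Over all libraries the cycling cells held 5 to 265 division UMIs (median 26) and 55 to 3301 matrix UMIs (median 419), in 3850 to 51485 UMIs and 993 to 7632 genes per cell. At the threshold of 5 division UMIs, 10 cells lay just outside with 4 UMIs and 19 with 3, and just inside were 5 cells with 5 UMIs and 8 with 6. The other cycling cells held 7 or more. Scrublet, which simulates doublets, called 1 of the 92 cells of the high fat library labelled DTR and none of the others. It called 0.690% to 1.37% of the kept barcodes, against a multiplet rate of 5.4% that the submitters estimated, and the cycling cells were deeper than the others. Without the called barcodes the share in the high fat library labelled DTR was 3.49%, and any doublets that were not called remain in these counts.

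Division was not particular to matrix-gene cells. Among Ptprc-positive cells with C1q RNA, a macrophage complement gene family, 16.2%, 12.2%, 11.7% and 11.8% met the same division term in the high fat library labelled DTR, the high fat library labelled WT, the normal diet library labelled DTR and the normal diet library labelled WT. With at least 2 division UMIs after thinning to 3000 UMIs they were 12.8%, 9.36%, 8.11% and 10.7%. Among Ptprc-positive cells with T or NK cell RNA the shares were 10.7%, 3.73%, 3.66% and 6.5%, and 26.1%, 7.19%, 5.33% and 8.44% when thinned. Thinning left out 251 of 412, 307 of 724, 179 of 629 and 120 of 523 of these cells. The thinned values thus describe the deeper cells only. In high fat diet the unthinned share was thus higher in the library labelled DTR in these classes as well. Among cells with C1q RNA the intervals of the high fat pair, 13.6 to 19.2 and 9.53 to 15.2, overlapped. In normal diet the share was lower in the library labelled DTR among T and NK cells, again with overlapping intervals (2.33 to 5.44 and 4.54 to 8.97).

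The label of a fibroblast or progenitor was checked against markers. In the high fat library labelled DTR all 92 cycling cells held Col1a1 (chromosome 11, 94936224 to 94953042, plus strand), 84 held Mki67, 71 held Top2a, 88 held Birc5 and 68 held Cdk1, genes the rule used. Markers it did not use were mixed. Pdgfra, the receptor that marks fat progenitors, had 99.7, 91.0, 181 and 41.1 CPM in cycling cells in the library order above, against 134, 184, 293 and 253 CPM in the other matrix-gene cells. It was seen in 68 of 92, 4 of 4, 13 of 18 and 2 of 3 cycling cells. Lum, a matrix proteoglycan of fibroblasts, had 766, 2322, 615 and 236 CPM, against 1736, 2093, 1652 and 1130.

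Not all of the cells were fibroblasts by these markers. In the high fat library labelled DTR, 17 of the 92 cycling cells held 3 or more UMIs of the mesothelial genes Msln, Upk3b, Lrrn4 and Krt19, against 60 of the 2535 other matrix-gene cells. In these 17, Krt8, a keratin of simple epithelia, had 804 CPM and was seen in 15 cells, Upk3b, a uroplakin of mesothelium, had 597 CPM in 17 cells, and Wt1, a transcription factor of mesothelium and visceral fat progenitors, had 288 CPM in 17 cells. Pdgfra had 20.6 CPM and Col1a1 1649 CPM. A further 2 cells held 3 or more UMIs of the adipocyte genes Adipoq, Plin1, Cidec and Car3. The remaining 73 held neither: Pdgfra had 128 CPM in 61 of them, Lum 1028 CPM in 71, Col1a1 8397 CPM in all 73, and Krt8 was at 0. The other libraries held mesothelial RNA in 0 of 4, 1 of 18 and 0 of 3 cycling cells and adipocyte RNA in 1, 4 and 2 of them, for the high fat library labelled WT, the normal diet library labelled DTR and the normal diet library labelled WT.

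The cells with mesothelial RNA cycled most in the high fat library labelled DTR. Of matrix-gene cells with that RNA, 17 of 77 were cycling there (22.1%, 13.4 to 33.0), against 0 of 27 in the high fat library labelled WT, which allows a share of up to 11.1% by a limit of 3 cells and 12.8% by the exact interval. In normal diet it was 1 of 71 (1.41%) in the library labelled DTR, against 0 of 117 in that labelled WT, which allows up to 2.56% by a limit of 3 cells and 3.1% by the exact interval. With no lower limit on matrix UMIs the counts were 17 of 78, 0 of 29, 1 of 75 and 0 of 124, at median depths of 16427, 13824, 12561 and 12741.5 UMIs, and thinned to 3000 UMIs the shares were 12%, 0%, 1.41% and 0%. Cells with neither mesothelial nor adipocyte RNA were also cycling more often in the libraries labelled DTR, with 73 of 2538 (2.88%), 3 of 1590 (0.189%), 13 of 929 (1.40%) and 1 of 918 (0.109%) cycling in the order of libraries used above. Their log2 share ratio of labelled DTR over labelled WT was 3.93 (2.33 to 6.24) in high fat diet and 3.68 (0.95 to 9.09) in normal diet. The normal diet ratio rests on 1 cycling cell in the library labelled WT.

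Markers of other cells were low. The 7 macrophage genes were at 63.1, 27.3, 30.2 and 20.5 CPM summed in cycling cells in the same order, against 60.2, 77.3, 37.3 and 30.2 CPM in the other matrix-gene cells. At least 3 macrophage UMIs were present in 7 of the 92 cycling cells of the high fat library labelled DTR (7.61%), against 137 of the other 2535 (5.40%), the highest cell having 55, and in none of the cycling cells elsewhere. In the high fat library labelled DTR, C1qc, the B cell genes Cd79a and Ms4a1, the T cell genes Cd3e, Cd3d and Trbc2 and the 3 dendritic genes were at 0 in cycling cells. The 4 pericyte and smooth muscle genes were at 35.7 CPM, against 41.8 CPM in the others, with at least 3 UMIs in 9 cycling cells (9.78%), against 159 of the others (6.27%), and the 4 endothelial genes at 24.6 CPM, against 50.7 CPM.

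When the other matrix-gene cells were clustered on their own and each cycling cell was given the cluster of its nearest neighbours, the cycling share differed between clusters of 1 library. In the high fat library labelled DTR it was 23.6% (17 of 72 cells, 14.4 to 35.1) in the mesothelial-like cluster, led by Muc16, Msln, Upk3b and Lrrn4, and 13.0% when thinned to 3000 UMIs. It was 6.77% (13 of 192, 3.65 to 11.3) in the cluster led by Krt25, Akr1c18, Gap43, Efhd1 and Bmp7. This cluster held Dpp4 and Anxa3, genes of early progenitors, at 110 and 855 CPM in its non-cycling cells. Neither gene was particular to it, with Dpp4 at 90.1 CPM in the mesothelial-like cluster and Anxa3 at 498 CPM in the cluster led by Ccl20. The cycling share was 3.46% (39 of 1128, 2.47 to 4.70) in the large cluster led by Cemip and including Actg2 and Thbs4 among its first 10 genes. It was 2.70% (6 of 222) in the cluster led by Ccl20 and 1.20% (11 of 915, 0.602 to 2.14) in that led by Inhba, with the cytokine Il11 and the IL-33 receptor Il1rl1. The Inhba cluster thus held 11 of the 92 cycling cells, against 904 of the 2535 others. In the normal diet library labelled DTR the Krt25 cluster again had a higher cycling share than the largest cluster. It was 6 of 116 cells (5.17%, 1.92 to 10.9), against 8 of 645 (1.24%, 0.537 to 2.43). Krt25 itself had 18.9 CPM in the non-cycling cells of its cluster in the high fat library labelled DTR and 0 in the other libraries. Dpp4 and Anxa3 were at 156 and 906 CPM there in normal diet labelled DTR. In that library the mesothelial-like cluster had Dpp4 at 226 CPM and the Ccl20 cluster had Anxa3 at 858 CPM. The largest cluster was led by Adipoq, Car3 and Plin1 with Mx1. Its non-cycling cells in this library had Adipoq at only 10.8 CPM, with Col15a1 at 839 CPM and Pdgfra at 356 CPM. In the libraries labelled WT the Krt25 cluster had 0 of 136 cells cycling in high fat diet and 1 of 154 in normal diet. A small cluster led by the mast cell genes Cpa3, Tpsb2 and Mcpt4 held 3 cycling cells of 23 in the high fat library labelled DTR, and mixed cells were not separated there.

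**Figure D2:**
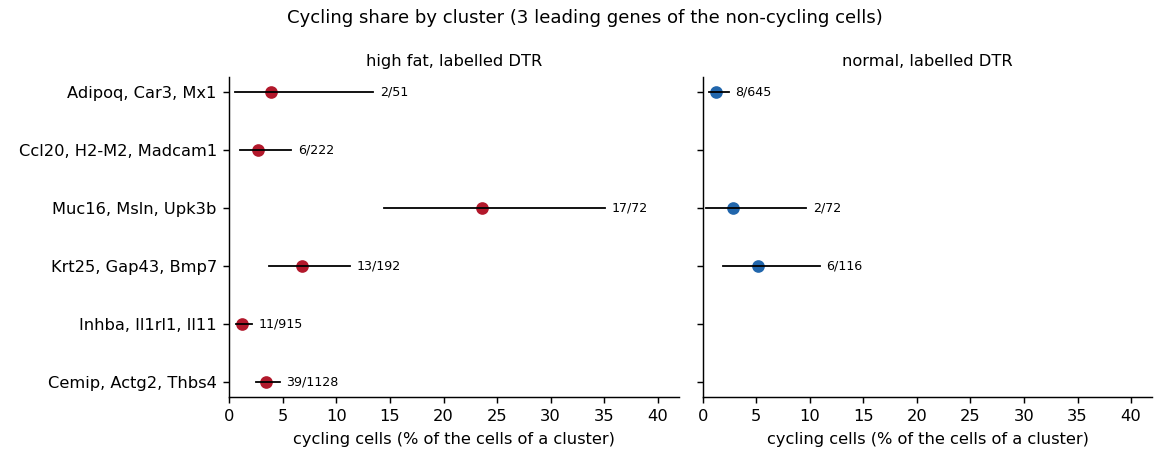
The x axis gives cycling cells as a percentage of the cells of a cluster, and rows are clusters named by 3 of their leading genes, for the libraries labelled DTR in high fat diet (left) and normal diet (right). Points are shares, lines are exact 95% binomial intervals, and cycling over total cells stand beside them, for clusters of at least 40 cells. The Muc16, Msln, Upk3b cluster is highest at 23.6% in high fat diet, and the Krt25, Gap43, Bmp7 cluster is highest at 5.17% in normal diet. Leading genes are taken over all libraries, and Krt25 was at 0 CPM in the non-cycling cells of that cluster in normal diet.

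Most of the cycling cells held more mitosis than replication RNA. The summed level of 40 mitosis genes had a median of 4441 CPM per cycling cell in the high fat library labelled DTR (lowest 49.5, highest 23036), against 79.1 CPM in the other matrix-gene cells. The summed level of 32 replication genes had a median of 1789 CPM (lowest 75.7, highest 6920), against 244 CPM. Mitosis exceeded replication RNA in 69 of the 92 cells and was below it in 23. In the normal diet library labelled DTR it did so in 16 of 18 cells, in the high fat library labelled WT in 1 of 4, and in the normal diet library labelled WT in 1 of 3. The split differed by kind of cell in the high fat library labelled DTR: replication RNA was the larger in 10 of the 17 cells with mesothelial RNA and in 12 of the 73 with neither mesothelial nor adipocyte RNA. The rule itself favours mitosis, since its division genes include Ccnb1, Cenpf, Birc5 and Top2a, and these counts are no measure of time spent in each phase.

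**Figure D3:**
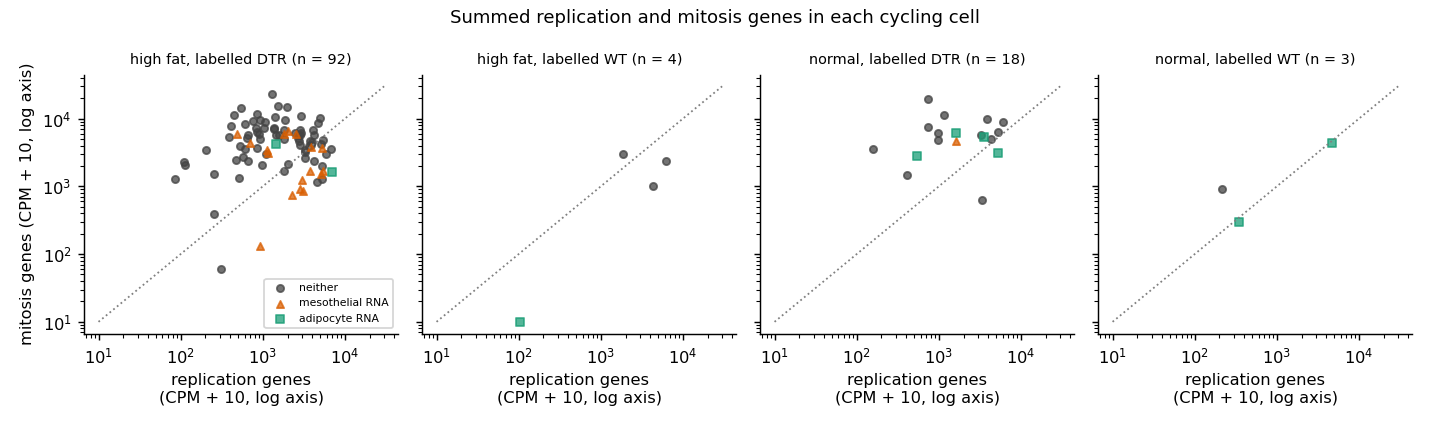
Each point is 1 cycling cell, with the summed level of replication genes on the x axis and of mitosis genes on the y axis, both in CPM plus 10 on log axes, by library. Circles are cells with neither mesothelial nor adipocyte RNA, triangles have mesothelial RNA, squares have adipocyte RNA, and the dotted line marks equal levels. In the high fat library labelled DTR 69 of 92 cells lie above the line.

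Gene by gene, the cycling cells of the high fat library labelled DTR were set against its other matrix-gene cells. Called below means past 2-fold with a counting interval that excludes no difference, among genes with at least 50 UMIs over both sides. The interval leaves out variation between cells, so a call can rest on few of them. Of 11922 genes, 1003 were higher (8.41% of genes) and 508 lower (4.26%), or 12.7% in either direction. The median log2 ratio of all genes was 0.07. With TMM scaling, which sets most genes to no change, 804 were higher and 775 lower, and the median was -0.10, so ratios near 0 have no fixed direction. With cells holding mesothelial or adipocyte RNA left out on both sides, 871 of 11779 genes were higher (7.39%) and 326 lower (2.77%), or 10.2% in either direction. In the normal diet library labelled DTR, whose 18 cycling cells are fewer than the minimum of 20 set at the start, 1165 of 10227 genes were higher (11.4%) and 579 lower (5.66%), or 17.1% in either direction. Without mesothelial and adipocyte RNA these were 1087 (11%) and 466 (4.73%) of 9844, or 15.8%, and without the shared barcodes 708 and 323 of 9873. The libraries labelled WT, with 4 and 3 cycling cells, were not counted in this way, and their levels are given as values.

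Mitosis genes stood highest. All 40 listed were measured and called higher, with a median log2 ratio of 6.57. Many passed the 50 UMIs through the cycling cells alone, so their count follows from how the cells were chosen and is not support of its own. Ube2c, the ubiquitin conjugase of the anaphase-promoting complex (chromosome 2, 164769898 to 164778822, plus strand), had 319 CPM in cycling cells of the high fat library labelled DTR, against 0.927 CPM in the others (688 against 33 UMIs, log2 ratio 8.43, 7.92 to 8.98). In the other libraries it had 91.0 CPM in cycling cells, against 0.576 CPM, in the high fat library labelled WT, 554 CPM, against 0.454 CPM, in the normal diet library labelled DTR, and 113 CPM, against 0.552 CPM, in the normal diet library labelled WT. It was thus high in the cycling cells of every library. Hmmr, a spindle protein that also binds hyaluronan (chromosome 11, 40701395 to 40733422, minus strand), had 280 against 5 UMIs in the high fat library labelled DTR (log2 ratio 9.85, 8.61 to 11.49). Plk1, the mitotic kinase, had 119, 0, 109 and 30.8 CPM in cycling cells of the high fat library labelled DTR, the high fat library labelled WT, the normal diet library labelled DTR and the normal diet library labelled WT, against 0.393, 0.105, 0.227 and 0.276 CPM in the others. The 4 cycling cells of the high fat library labelled WT had none of its UMIs. Esco2, which joins sister chromatids after replication, had 89 UMIs in 40 cycling cells and none in the 2535 others, which is at least 490-fold higher against a floor of 3 UMIs. The other genes of largest ratio were Neil3, Pbk, Cep55, Kif2c, Pimreg and Knl1, with log2 ratios of 8.88, 8.81, 8.80, 8.80, 8.44 and 8.29.

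Replication genes were higher by smaller ratios. All 31 measured of 32 listed were called higher in the high fat library labelled DTR, with a median of 3.37, from 1.25 for the histone mRNA binding protein Slbp to 6.57 for Tk1. Tk1, the thymidine kinase of the salvage pathway (chromosome 11, 117815526 to 117826092, minus strand), had 173, 146, 113 and 134 CPM in cycling cells in the same order of libraries, against 1.83, 0.734, 1.36 and 0.276 CPM. Mcm5 had 80.7, 100.2, 81.1 and 61.6 CPM, against 3.59, 1.68, 3.25 and 2.48 CPM. Rrm2, the small subunit of ribonucleotide reductase, had 138, 81.9, 179 and 61.6 CPM, against 3.65, 1.83, 1.81 and 1.20 CPM. These genes were thus far above the other cells in all 4 libraries, and the values of the libraries labelled WT rest on 6 to 16 UMIs each. Pcna, the sliding clamp, had a broader base: 69.1, 173, 139.5 and 134 CPM in cycling cells, against 16.4, 23.6, 30.5 and 28.3 CPM in the others.

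Repair and chromatin genes were higher as well. Of 11 measured DNA repair genes, 10 were called higher in the high fat library labelled DTR, with a median log2 ratio of 3.75, and none lower. Of 14 measured chromatin and histone genes, 13 were called higher (median 2.84). Stmn1, which destabilises microtubules, had 727, 674, 892 and 493 CPM in the cycling cells of the 4 libraries, against 30.8, 12.8, 13.9 and 13.1 CPM. H2afz, a variant histone not tied to replication, had 1509, 1211, 1906 and 1510 CPM, against 205, 221, 183 and 219 CPM, and was seen in all 117 cycling cells. Hist1h2bc was the exception at -0.69 (-0.87 to -0.51), uncalled. Histone transcripts mostly lack the poly(A) tails that the library kit captures, and near-identical copies can share reads, so single histone genes are uncertain.

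**Figure D4:**
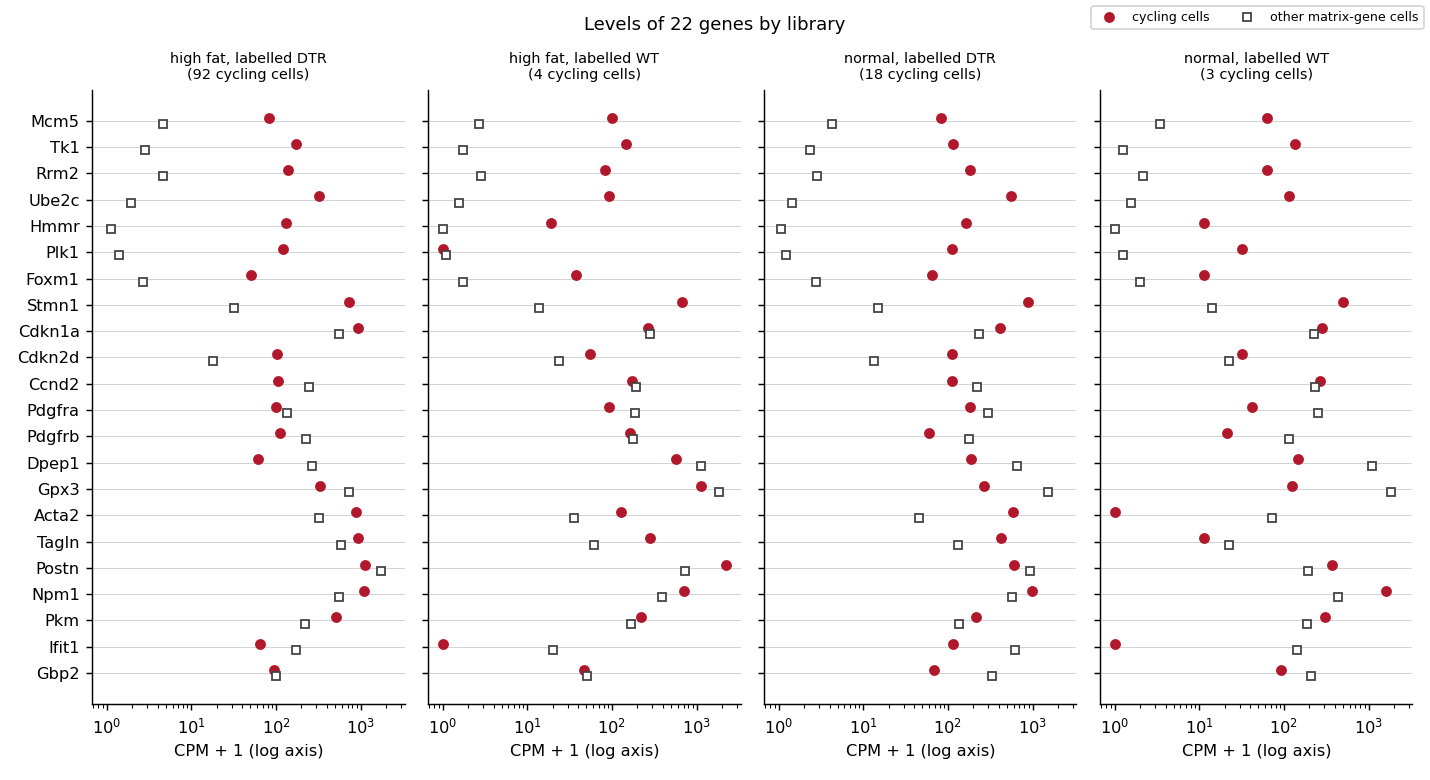
The x axis gives the level of 22 genes in CPM plus 1 on a log axis, by library. Filled circles are the cycling cells and open squares the other matrix-gene cells, with the number of cycling cells above each panel. Replication and mitosis genes from Mcm5 to Plk1 lie far to the right in cycling cells, except Plk1 in the high fat library labelled WT, while Pdgfra and Gpx3 lie to the left in all 4 libraries.

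Among genes that steer entry into the cycle, the late factors stood out and the D cyclins were split. Of 15 measured control genes, 7 were called higher and 1 lower in the high fat library labelled DTR, with a median of 0.88. Foxm1, the transcription factor of mitosis genes, had 49.6, 36.4, 64.1 and 10.3 CPM in the cycling cells of the 4 libraries, against 1.71, 0.734, 1.74 and 1.01 CPM. Mybl2, its partner in the MuvB complex, had a log2 ratio of 4.83 (4.17 to 5.50) in the high fat library labelled DTR, Fbxo5, the inhibitor of the anaphase-promoting complex, 5.39 (4.78 to 6.04) and Rbl1, a retinoblastoma relative, 3.32 (2.84 to 3.8). Cyclin D2, which links growth signals to cycle entry and is encoded by Ccnd2, was lower: 104 CPM in cycling cells, against 247 CPM (log2 ratio -1.25, -1.45 to -1.06). Cyclin D1, encoded by Ccnd1, was higher at 46.8 CPM, against 14.04 CPM, but with mesothelial and adipocyte RNA left out its ratio of 1.74 came to 0.43, and it was seen in 26 of 92 cells. The growth regulator Myc had 83.0 CPM, against 148 CPM, and was not called (-0.83).

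The brakes on the cycle did not move as a block. Of 17 measured, 4 were called higher and 2 lower, with a median of -0.25. Cdkn2d, the INK4 inhibitor p19 (chromosome 9, 21288410 to 21291407, minus strand), had 102, 54.6, 109 and 30.8 CPM in the cycling cells of the 4 libraries, against 16.9, 22.6, 12.4 and 21.7 CPM. Its log2 ratio was 2.59 (2.36 to 2.82) in the high fat library labelled DTR and 3.14 in the normal diet library labelled DTR. Its relatives Cdkn2c and Cdkn2a were higher at 1.37 (1.02 to 1.71) and 1.72 (1.35 to 2.06) in high fat diet, and Cdkn2a was seen in 40 of 92 cells. Cdkn2a was at 37.6 and 35.8 CPM in the cycling cells of the libraries labelled DTR in high fat and normal diet, while the other matrix-gene cells had 11.4 and 0.907 CPM. Cdkn1a, encoding p21 (chromosome 17, 29090976 to 29100727, plus strand), had 923 CPM in cycling cells, against 552 CPM, in the high fat library labelled DTR (0.74, 0.67 to 0.81, uncalled), and 31.4% of its UMIs came from 1 cell. Klf9, a Krüppel-like transcription factor, was lower (-1.20), as was Cdkn1c, encoding p57 (-1.13), and both were uncalled without mesothelial and adipocyte RNA (-0.89 and -0.88). Of 15 p53 target genes, a list added after the data were seen, 5 were called higher (median 0.76), among them Gdf15 at 2.68 with 74.5% of its UMIs in 1 cell. Without the shared barcodes 1 was called higher and the median was 0.34.

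Genes of a resting fibroblast were lower in the cycling cells. A list of 15 enzymes and secreted factors of quiescent fat stroma had 9 called lower and 1 higher in the high fat library labelled DTR, with a median of -1.16. It was the only list of the 24 with a median below -1, but its median was -0.75, with 2 called lower, against other cells as deep as the cycling ones, and -0.79, with 3 called lower, when mesothelial and adipocyte RNA was left out. Dpep1, a membrane dipeptidase (chromosome 8, 123186242 to 123201812, plus strand), had 60.7, 564, 185 and 144 CPM in the cycling cells of the 4 libraries, against 262, 1112, 648 and 1099 CPM. It was lower in each library, with log2 ratios of -2.11 (-2.37 to -1.86) and -1.81 in the libraries labelled DTR in high fat and normal diet. Gpx3, a secreted glutathione peroxidase, had 328, 1129, 266 and 123 CPM, against 733, 1839, 1526 and 1837 CPM. In the normal diet library labelled DTR 9 of the 14 measured were lower and none higher, with a median of -1.25. Gsta3, the gene called higher, rests on 11 UMIs in 6 cells, and its ratio of 1.70 in all cells came to 0.92 without mesothelial and adipocyte RNA.

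Fibroblast identity genes were lower or uncalled in the high fat library labelled DTR. Of 15 identity genes 4 were called lower and none higher (median -0.50, and -0.21 without mesothelial and adipocyte RNA). The complement inhibitor gene Serping1 had 626, 1475, 790 and 267 CPM in the cycling cells of the 4 libraries, against 1691, 3176, 2774 and 2399.9 CPM, and was the one identity gene still called lower without those cells (-1.06). Thy1, a surface glycoprotein of mesenchymal cells, had 239 CPM in cycling cells, against 188 CPM, in the high fat library labelled DTR (0.35, uncalled) and a ratio of 1.15 in the normal diet library labelled DTR. Other collagens were lower by little: 1 of 15 was called lower (median -0.50), Col14a1 at -1.08. Of 20 matrix remodelling genes, Mmp2, the gelatinase, was the 1 called lower at -1.84 (-1.97 to -1.71), at 225 CPM in cycling cells, against 803 CPM. Timp3, an inhibitor of metalloproteinases, was the 1 called higher at 1.52, but was at 0.14 without mesothelial and adipocyte RNA.

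Early progenitor genes were not higher as a list in the cycling cells of the high fat library labelled DTR. Of 14 such genes none was called higher and 1 lower (median -0.42, and -0.16 without mesothelial and adipocyte RNA). The Krt25 cluster described above nevertheless held 14.1% (7.74 to 23.0) of the cycling cells of this library. It held 7.06% (6.09 to 8.13) of the other matrix-gene cells. Dpp4, the surface peptidase that marks early progenitors, had 29.7, 27.3, 43.4 and 0 CPM in the cycling cells of the 4 libraries, against 31.1, 44.9, 40.2 and 102 CPM. Its log2 ratio was -0.07 (-0.45 to 0.30) in the high fat library labelled DTR and 0.11 in the normal diet library labelled DTR, so no difference was detectable at this depth. The non-cycling cells of the mesothelial-like cluster also held Dpp4, at 90.1 CPM in the high fat library labelled DTR, so its ratio mixes kinds of cell. Pi16, a peptidase inhibitor of the same cells, was lower, at 49.6 CPM in cycling cells, against 160 CPM (-1.69, -1.98 to -1.41), and at -1.32 without mesothelial and adipocyte RNA. Of 14 committed preadipocyte genes 2 were higher and 5 lower (median -0.63). Lpl, lipoprotein lipase, had 397 CPM in cycling cells, against 946 CPM (-1.25), and the chemokine Cxcl14 35.2 CPM, against 118 CPM (-1.74). Fabp4, the fatty acid binding protein, had 1199 CPM, against 553 CPM, with 30.7% of its UMIs in 1 cell, and its log2 ratio was 0.94, uncalled, without mesothelial and adipocyte RNA. Pparg, the adipogenic regulator, rests on 23 UMIs (0.61, -0.08 to 1.23). Of 7 genes of the F3-positive stromal cells 2 were lower, Cygb (-1.17) and Igfbp3 (-1.84).

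Some contractile genes were higher in the cycling cells of the high fat library labelled DTR, and no matrix gene of the same myofibroblast list was. Of 19 measured, 3 were called higher and none lower. Acta2, smooth muscle actin (chromosome 19, 34241090 to 34255590, minus strand), had 880, 127, 583 and 0 CPM in the cycling cells of the 4 libraries, against 324, 35.1, 43.9 and 71.1 CPM. Its log2 ratio was 1.44 (1.37 to 1.51) in the high fat library labelled DTR, in 69 of 92 cells, and 1.61 without mesothelial and adipocyte RNA. In the normal diet library labelled DTR it was seen in 7 of 18 cycling cells, and 89.3% of its UMIs came from 1 cell. Tpm2, a tropomyosin, was at 1.02 (0.92 to 1.11), and Cnn1, calponin, at 2.05 (1.24 to 2.79) from 19 UMIs in 7 cells. Of the 3, 2 stayed called with TMM scaling, and 1 gene of the list was called higher against other cells as deep as the cycling ones. The matrix genes Postn (-0.62), Fn1 (-0.71), Lox (-0.76) and Thbs1 (-0.60) lay below 0 and uncalled, and the median of the list was -0.25, or 0.07 without mesothelial and adipocyte RNA. The pericyte and smooth muscle genes Rgs5, Notch3, Myh11 and Kcnj8 were summed at 35.7 CPM in these cells, against 41.8 CPM, with at least 3 UMIs in a larger share of the cycling cells, as given above.

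**Figure D5:**
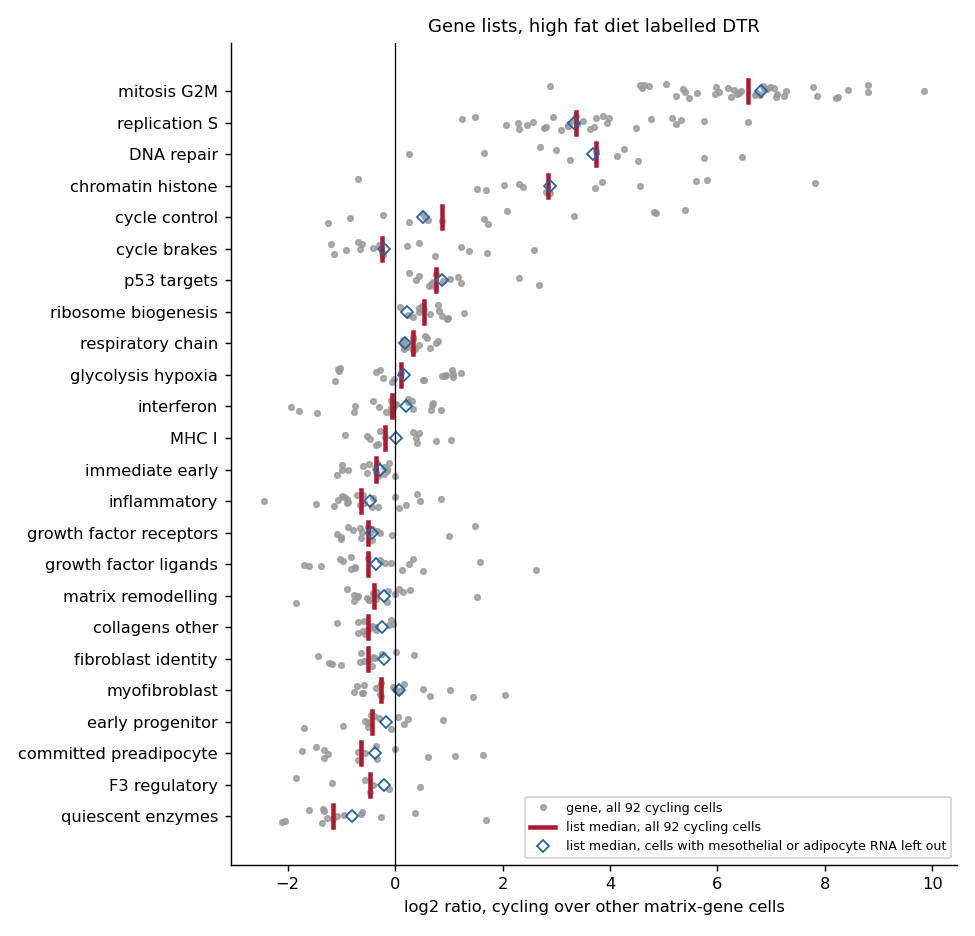
The x axis gives the log2 ratio of cycling over other matrix-gene cells in the high fat library labelled DTR, and rows are the 24 gene lists. Grey points are genes, red bars are list medians over all 92 cycling cells, and blue diamonds are medians with mesothelial and adipocyte RNA left out. The mitosis, replication, DNA repair and chromatin lists have medians from 2.84 to 6.57, the quiescent enzymes list has -1.16, and the others lie between.

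Growth signals were mostly lower or uncalled. Of 17 receptors 1 was called higher and 3 lower (median -0.50), and without mesothelial and adipocyte RNA none was called. Pdgfrb had 111, 164, 58.5 and 20.5 CPM in the cycling cells of the 4 libraries, against 224, 174, 174 and 113 CPM, with a log2 ratio of -1.02 (-1.21 to -0.83) in the high fat library labelled DTR and -0.65 without those cells. Met, the receptor of hepatocyte growth factor, was 2.82-fold higher over all cells, but its log2 ratio was -0.45 without them. Of 19 measured ligands 2 were higher and 4 lower (median -0.50). Hgf was lower at -1.70 (-2.38 to -1.10), at 10.2 CPM in cycling cells, against 33.2 CPM, as were the fibroblast growth factors Fgf7 (-1.37) and Fgf10 (-1.61) and Vegfa (-1.02). Pdgfb was higher at 2.63 (1.76 to 3.44), but 72.2% of its 18 UMIs came from 1 cell, and Bmp4 was at 1.59.

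Few growth metabolism genes were called. Of 15 ribosome biogenesis genes 1 was called higher, Dkc1, which modifies ribosomal RNA (1.29), and the median was 0.55, or 0.22 without mesothelial and adipocyte RNA. Npm1, nucleophosmin, had 1084, 701, 982 and 1592 CPM in the cycling cells of the 4 libraries, against 547, 391, 571 and 437 CPM, which was higher in each. None of 18 respiratory chain genes was called (median 0.33). Of 19 glycolysis and hypoxia genes 4 were higher and 4 lower (median 0.12, and -0.05 with 1 called higher under TMM scaling). Those higher included the enzymes Tpi1 (1.09), Eno1 (1.08) and Pkm (1.22), whose ratios were 0.60, 0.45 and 0.63 without mesothelial and adipocyte RNA, and those lower were Hk2 (-1.11), Adm (-1.06), Bnip3 (-1.05) and Vegfa.

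Between the libraries labelled DTR, the interferon genes of cycling cells lay further below those of the other cells in the normal diet library. Of 24 interferon genes none was called higher and 3 lower in the cycling cells of the high fat library labelled DTR (median -0.05, but 0.05 with each cell scaled to the same total and 0.21 without mesothelial and adipocyte RNA), and none higher and 10 lower in those of the normal diet library labelled DTR (median -0.94). The difference between these libraries was not tested. Summed over the list, the log2 ratio was -0.12 in the high fat library labelled DTR and -0.83 in the normal diet library labelled DTR. It was -1.10 (-1.65 to -0.59) in the high fat library labelled WT and -1.75 (-2.23 to -1.30) in the normal diet library labelled WT. The last 2 values rest on 31 and 40 UMIs in cycling cells. A low ratio was thus not particular to normal diet. Ifit1, an antiviral RNA binding protein, had 63.5 CPM in cycling cells, against 173 CPM, in high fat diet, and 115 CPM, against 611 CPM, in normal diet. Gbp2, a guanylate binding protein, had 93.7 CPM, against 98.2 CPM, in high fat diet, and 67.9 CPM, against 333 CPM, in normal diet, both labelled DTR. Of 22 inflammatory genes 4 were lower and none higher in high fat diet (median -0.63), Il6 among them at -1.06, and 9 were lower with TMM scaling. Of 13 genes of MHC class I, H2-Q7 was called higher (1.03) while the median was -0.18, or 0.02 without mesothelial and adipocyte RNA. It was not called with TMM scaling, and it is near-identical to neighbouring Q genes, so its reads are uncertain. Of 17 immediate early genes Fosl2 was called lower (-1.08) and none higher.

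Outside the lists, the genes of lowest ratio in the high fat library labelled DTR were few-count genes with 1 exception. Ace, which cleaves angiotensin, had 14 UMIs in cycling cells, against 2327, or 6.49 CPM, against 65.4 CPM (log2 ratio -3.33, -4.21 to -2.58). In the normal diet library labelled DTR it had 33 UMIs, against 2901 (-1.82). Sult1a1, a sulfotransferase, had 4 UMIs, against 630 (-3.25, -5.13 to -1.89). Il4i1, C130026I21Rik, Prtn3, Snx29, Slc6a17, Slc6a12 and Smim24 had 1 UMI each and Plppr3 had 2 in cycling cells, against 160 to 376 in the others, with log2 ratios from -3.89 to -3.28.

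Between the diets, the cycling cells of the libraries labelled DTR differed in part as the other matrix-gene cells did. Of 6797 measured genes, 405 were higher and 284 lower in high fat diet than in normal diet (10.1% called), against 12.9% of 12186 genes in the other cells. Of the 689 called, 619 lay in the same direction in the other cells. The share in the same direction over all measured genes is not given here, so this count has no baseline. The interferon, replication and mitosis lists had medians of opposite sign in the cycling and the other cells, as given below. Lying in the same direction does not mean being called there. Pdgfrl and Ccl6 lay under 2-fold in the other cells, at log2 ratios of 0.80 and 0.91. Tnc, the matrix glycoprotein tenascin, had 274 UMIs in 53 of the 92 high fat cells, against 3 UMIs in 2 of the 18 normal diet cells (log2 ratio 4.49, 2.93 to 6.78), and 2.52 in the other matrix-gene cells. Of 17 myofibroblast genes 8 were higher and none lower (median 0.89, against 1.24 in the other cells). Acta2 was at 0.59 over all cycling cells and 3.49 without mesothelial and adipocyte RNA. Rasl11a (80 against 1 UMI, 4.30) and Pdgfrl (70 against 1 UMI, 4.11) were among the 5 highest ratios with Tnc. Ccl6, a chemokine of myeloid cells, had 130 UMIs in 28 high fat cells, against 1 UMI in normal diet, with a log2 interval of 2.49 to 10.31, and its log2 ratio was 0.91 in the other matrix-gene cells. Slpi, a protease inhibitor of epithelia, was at 4.36 in all cycling cells and -2.09 without mesothelial and adipocyte RNA.

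Inflammatory genes were lower in the high fat cells. Of 21 measured, 13 were lower and none higher (median -1.15, against -1.28 in the other cells). Hp, haptoglobin, had 176 CPM in high fat cells, against 1842 CPM in normal diet cells (log2 ratio -3.39, -3.56 to -3.21), and Lcn2, lipocalin 2, 26.0 CPM, against 485 CPM (-4.22), which came to -1.53 without mesothelial and adipocyte RNA. Sult1e1, the oestrogen sulfotransferase, was at -4.12 and Apln, apelin, at -4.61, or -1.60 without those cells. Cxcl13, the B cell chemokine, had 0 UMIs in the 92 high fat cells, against 695 in the normal diet cells, all of them in 2 cells, and so says nothing of the other 16. Interferon genes had a median of 0.23 in the cycling cells (3 higher and 1 lower of 18), against -0.89 in the other matrix-gene cells. Replication and mitosis genes had medians of -0.17 and -0.30 in the cycling cells, with 1 gene called lower in each list, against 0.21 and 0.99 in the other matrix-gene cells, where 2 of 30 and 9 of 19 were higher. The cycling cells of both diets were chosen for division RNA, and the other cells for having little of it. No such counts were made between genotypes, since the libraries labelled WT held too few cycling cells.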

How the data were processed

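The authors deposited counts of UMIs per gene and barcode for 31053 genes in 1 aggregated matrix. Per the submitters' processing notes, Cell Ranger 3.1.0 and the mm10 build were used. Other settings are not given in the sources used here. Libraries were made with a 3' kit at a target of 7000 cells each, per the labels' protocols. The 32 sample records were treated as 4 libraries, 1 per group, since 8 records share each source name. No deposited value column was left unused (0).

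Levels were UMIs summed over cells and scaled to CPM. Shares have exact (Clopper-Pearson) 95% binomial intervals, ratios have conditional exact binomial intervals, and counts of 0 a floor of 3 UMIs over the group. These cover counting error only. A gene was measured with at least 50 UMIs over both sides and called past 2-fold. Ratios needed 20 cycling cells, or 15 as an addition after the data were seen. The call rule was tested on simulated data. Scrublet ran in each library with an expected doublet rate of 5.4%. The other matrix-gene cells were clustered by Leiden at resolution 0.6 on 2000 variable genes, 30 components and 15 neighbours, and each cycling cell took the cluster of most of its 15 nearest neighbours. Tools were Python 3.11.15, numpy 2.4.6, scipy 1.17.1, pandas 2.3.3, scanpy 1.11.5, scikit-learn 1.9.0, leidenalg 0.10.2, igraph 0.11.9 and matplotlib 3.10.9, with TMM factors from edgeR 4.0.16 in R 4.3.3.

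The cells, gene lists and tests were chosen with earlier results of these data known. Genes are named from those lists, and otherwise as the 10 with the largest smallest ratio and the 10 with the lowest largest ratio of cycling over other cells, or the 5 highest and 5 lowest ratios between libraries, leaving out mitochondrial genes and genes of the rule. Promoters are RefSeq, and gene positions GENCODE, both on GRCm38. Single DNA repair genes are not reported here.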

Additional observations from a re-analysis of the deposited data

Results flagged for a closer look

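The summed level of the mesothelial marker genes in cycling cells relative to the other matrix-gene cells lay on opposite sides of 0 in the libraries labelled DTR. In high fat diet it was 335 CPM in cycling cells, against 51.3 CPM in the others, a log2 ratio of 2.71. In normal diet it was 192 CPM, against 265 CPM, a log2 ratio of -0.46. The difference was not tested. Each diet has 1 library, and the normal diet value rests on 1 of 18 cycling cells with at least 3 mesothelial UMIs, against 17 of 92 in high fat diet.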

How the results depend on the processing

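No paired analysis was possible because each group is 1 library. The log2 ratio of the cycling share ran from 2.73, a lower bound, to 4.00 for the high fat library labelled DTR over that labelled WT, from 1.27, a lower bound, to 4.03 for the normal diet pair, from 0.77 to 1.85 for high fat over normal diet labelled DTR, and from -0.28 to 0.97 between the libraries labelled WT, over every alternative run. The highest value of high fat over normal diet labelled DTR, 1.85, came without the shared barcodes. Thinning to 3000 UMIs left no cycling cell in the libraries labelled WT, so it gave no ratio between them.

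For the cycling against the other matrix-gene cells of the high fat library labelled DTR, the number of genes lower was 775 with TMM scaling and 326 without mesothelial and adipocyte RNA, against 508. Lists with a median below -1 numbered 0 against other cells as deep as the cycling cells and 0 without mesothelial and adipocyte RNA, against 1. TMM factors move all ratios down together, and for the others the cause was not tested. Of the other list and gene values under alternatives, 45 moved and 171 did not, and the medians of the glycolysis, interferon, myofibroblast and MHC class I lists changed sign under the settings named beside them. Alternatives on gene counts between libraries were not run, since the 20 cells asked for were not reached, and the count for high fat over normal diet is given with 15. The settings without mesothelial and adipocyte RNA, with only the division genes thinned, and without shared barcodes for gene ratios were chosen after seeing the data. Depth limits the libraries labelled WT, with 4 and 3 cycling cells.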

Other observations

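In the high fat library labelled DTR 8 of the 92 cycling cells had under 1.3% mitochondrial UMIs (8.70%), and none did in the other libraries. This split was chosen after the values were seen. The 15 p53 target genes had a median summed level of 4143 CPM per cell in these 8, against 1138 CPM in the other 84. Cdkn1a, encoding p21, had 4349 CPM in the 8 cells, against 393 CPM in the other 84. Single cells of the 8 ranged from 123 to 12139.5 CPM. The highest was also the deepest, at 51485 UMIs, so the pooled level leans on few cells. Gdf15, a stress-induced cytokine, had 3248 CPM, against 107 CPM, with most of its UMIs from 1 cell. Among the other matrix-gene cells of the library 213 of 2535 were under 1.3% (8.40%), and their Cdkn1a level was 1131 CPM, against 452 CPM in the remaining 2322. The clock gene Dbp had 544 CPM in the 8 cycling cells, against 4.28 CPM in the other 84, and 285 CPM in the 213 other matrix-gene cells under 1.3%, against 10.6 CPM in the remaining 2322.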
